A study of Mus musculus with 25 samples.

Results

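Hepatocytes taken from mice fed a NASH diet (one that brings on non-alcoholic steatohepatitis) for 5 weeks were compared with hepatocytes from mice on normal diet. The comparison rests on 8 of the 25 libraries of the series, chosen by their diet and time labels alone: 3 libraries from week 5 of the NASH diet and 5 from normal diet (0 weeks). All mice were C57BL/6, with no genetic change named in the labels, and in every group the liver was digested by collagenase perfusion, hepatocytes were collected by slow centrifugation and cells were then sorted by flow cytometry. The 3' ends of polyadenylated RNA were then sequenced. Libraries of weeks 1 to 4 and week 6 entered the model only to estimate the spread, and weeks 4 and 6 (3 libraries each) were also set beside week 5. What the diet contained, how old the mice were, their sex and the gate of the sort are not stated in the labels. Nor do they say whether each numbered library is a mouse of its own, so every p-value is against a spread between libraries that may be in part technical.

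Hepatocytes make most plasma proteins, produce bile acids, detoxify ammonia and drugs, and both make and export cholesterol and fat. Cholesterol supply is sensed by 2 opposing systems: SREBP2 turns on the synthesis and uptake genes when sterols are scarce, and the LXR receptors, bound by oxidised sterols, turn on export genes when sterols are plentiful. In steatohepatitis fat storage is joined by inflammation and scarring, in which Kupffer cells and incoming macrophages, sinusoidal endothelial cells and collagen-producing stellate cells take part. RNA of such cells is therefore looked for below in the sorted hepatocytes as well.

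The libraries held 7255210 to 9148584 counts at week 5 and 5281143 to 7985100 counts on normal diet (two-sided exact permutation p = 0.179 over all 56 splits). Mitochondrially encoded transcripts took 22.4% ± 0.593 of the counts at week 5 and 23.1% ± 3.00 on normal diet (SD, n = 3 and 5, exact permutation p = 0.75). Levels are given as CPM, counts scaled to a common library total and corrected for library composition by the TMM method. Means of CPM carry the SD (n = 3 at week 5 and 5 on normal diet), and log2 fold changes, week 5 over normal diet, carry their standard error. The TMM factors themselves averaged 1.14 ± 0.0175 at week 5 and 0.906 ± 0.0322 on normal diet (SD, exact permutation p = 0.0357, the smallest that 3 against 5 libraries allow). Scaling by library size alone raised the median log2 fold change over all genes by 0.33. For that reason changes are given against the composition-scaled median, and counts with library size alone are given beside the gene groups in which they moved most. Hepatocyte transcripts dominated every library: Alb, the gene of serum albumin, stood at 46622, 52194 and 56744 CPM at week 5, against 65003, 61766, 59694, 66573 and 67268 CPM on normal diet.

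Week 5 differed from normal diet at 4197 of 11869 tested genes, which is 35.4% (edgeR quasi-likelihood test, Benjamini-Hochberg adjusted p under 0.05). Of these, 2268 were higher and 1929 lower at week 5, and 5257 genes had an unadjusted p under 0.05. With library size alone the total was similar at 4144, but it then split into 3779 higher and 365 lower. In 3742 of the 4197 genes no week 5 library overlapped with any normal-diet library, as in 4547 (38.3%) of all tested genes, 20.1% lying higher and 18.2% lower. The higher and lower genes were unlike in abundance and size of change. Higher genes had a median level of 2.47 CPM on normal diet and a median log2 fold change of 1.97, and 1801 of them stood under 10 CPM there. Lower genes had a median level of 54.3 CPM on normal diet and a median log2 fold change of -0.56. Changes of at least 2-fold were found in 1734 higher and 268 lower genes. Among the 1187 genes with at least 100 CPM on normal diet, 30 were higher and 642 lower, of which 6 and 60 by at least 2-fold.

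**Figure D1:**
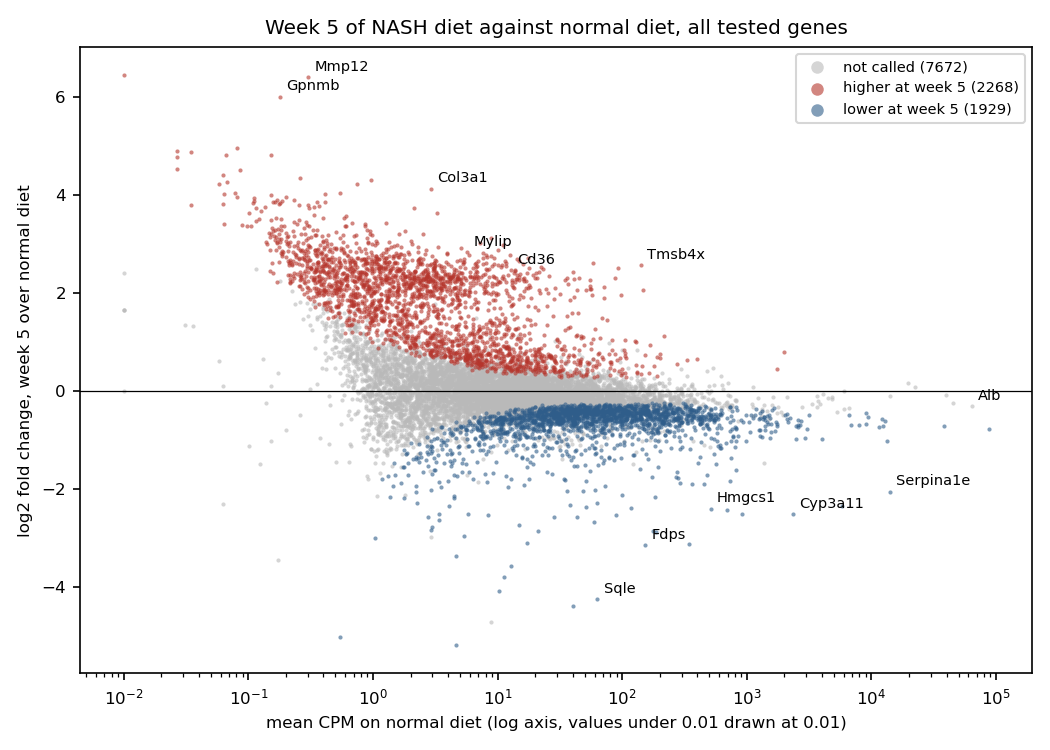
Each point is 1 of the 11869 tested genes, with its mean CPM on normal diet (log axis) against its log2 fold change, week 5 over normal diet. Genes called higher (2268) and lower (1929) are coloured. The largest rises, Mmp12 and Gpnmb among them, lie under 10 CPM on normal diet, and Sqle, Fdps, Hmgcs1, Cyp3a11 and Serpina1e stand out below the other abundant genes.

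Genes of cholesterol synthesis were among those that fell most. In the mevalonate arm, which builds the isoprenoid units, 8 of 9 tested members were lower at week 5 and 0 higher, with a median log2 fold change of -2.35, where 16.3% of all tested genes were lower and the median of all was -0.05. In the arm from squalene to cholesterol all 12 tested members were lower, with a median of -2.22. With library size alone the lower counts were also 8 and 12, with 1 member of the mevalonate arm higher, and the medians were -2.02 and -1.89. Summed over the mevalonate arm, the level was 158 to 209 CPM at week 5, against 447 to 1220.1 CPM on normal diet. For the squalene arm the sum was 501 to 607 CPM at week 5, against 1202 to 2135 CPM on normal diet, again with no overlap.

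Sqle, squalene epoxidase, which commits squalene to sterols, had 2.82, 2.86 and 4.40 CPM at week 5, against 57.7, 63.3, 54.8, 70.3 and 69.9 CPM on normal diet. Every week 5 library lay more than 10-fold below every normal-diet library. The log2 fold change was -4.23 ± 0.26 (edgeR adjusted p = 7.4e-11), the smallest p of all tested genes. Fdps, farnesyl diphosphate synthase, the last enzyme before squalene synthesis, had 17.4, 15.2 and 19.7 CPM at week 5, against 193, 151, 83.003, 142 and 198 CPM on normal diet (log2 fold change -3.13 ± 0.29). The groups did not overlap, and Fdps was lower by 8.78-fold. Hmgcs1, which makes the precursor of mevalonate, had 117, 81.6 and 92.1 CPM at week 5, against 631, 466, 197, 510.1 and 751 CPM on normal diet (-2.40 ± 0.35). The lowest normal-diet library, number 3, was still above all week 5 libraries. Idi1, the isomerase of isopentenyl diphosphate, had 3 counts in the 3 week 5 libraries together, against 131 in the 5 normal-diet libraries.

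Falls of more than 5-fold were shared by steps on both sides of squalene. They included Mvd, mevalonate diphosphate decarboxylase (-2.85 ± 0.34), Cyp51, the lanosterol demethylase (-2.86 ± 0.29), and Msmo1 and Nsdhl, which remove methyl groups from the sterol ring (-2.88 ± 0.32 and -2.68 ± 0.28). Cyp51 averaged 24.4 ± 6.23 CPM at week 5 and 177 ± 54.2 CPM on normal diet. Pmvk, phosphomevalonate kinase (-2.35 ± 0.29), and Dhcr7, the last reductase of the pathway (-2.11 ± 0.22), changed by over 4-fold. Outside this pathway, a fall of like size was found for Aldoc, the aldolase of glycolysis best known from brain (1.98 ± 0.609 CPM at week 5 and 17.1 ± 3.37 CPM on normal diet, -3.09 ± 0.29). The exception among the sterol genes was Ggps1, which makes geranylgeranyl diphosphate and so draws isoprenoids away from sterols. It averaged 4.86 ± 1.02 CPM at week 5 and 3.17 ± 0.585 CPM on normal diet and was not called (0.63 ± 0.28).

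Promoter sequence is shown for 2 of these genes because so many members moved together. RefSeq windows of the build GRCm38.p6, from 250 bases before to 50 bases after a gene's start, were at hand for 16 of the 21 genes of both arms (19 windows). Both strands were searched for TCACNCCAC, a form of the sterol response element bound by SREBP, for CCAAT, the box bound by NF-Y, and for CACGTG. TCACNCCAC was found in 1 of the 19 windows, that of Hmgcs1, against 1.24% of all 32851 windows of the table. CCAAT was found in 15 of 19 windows, against 37.4% of all windows, and CACGTG in 3 of 19, against 7.15% of all windows. The windows of Hmgcs1 and of Nsdhl follow, 5′ to 3′ on the plus strand, with the matches to TCACNCCAC or CCAAT on either strand in capitals and no overlap between matches. Nsdhl was taken as the called gene with the smallest p that had a single window holding CCAAT, a choice made after its values were seen.
Hmgcs1, chr13:119690101-119690400: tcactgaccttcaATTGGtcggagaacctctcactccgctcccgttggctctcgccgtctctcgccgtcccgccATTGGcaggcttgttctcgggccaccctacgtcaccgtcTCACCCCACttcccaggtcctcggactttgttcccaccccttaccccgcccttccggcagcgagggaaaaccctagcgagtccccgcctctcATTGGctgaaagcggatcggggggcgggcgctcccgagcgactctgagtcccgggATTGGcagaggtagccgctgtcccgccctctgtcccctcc
Nsdhl, chrX:72918271-72918570: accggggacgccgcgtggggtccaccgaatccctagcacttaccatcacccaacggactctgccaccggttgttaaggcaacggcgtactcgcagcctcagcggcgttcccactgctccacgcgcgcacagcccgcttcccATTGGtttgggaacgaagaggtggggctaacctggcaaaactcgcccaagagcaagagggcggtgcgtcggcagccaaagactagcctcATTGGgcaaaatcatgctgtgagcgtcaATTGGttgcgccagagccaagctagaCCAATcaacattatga
The match to TCACNCCAC in Hmgcs1 starts at base 114 of the window, and each window holds 4 CCAAT boxes. A match is a string of letters and not a measured binding site.

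**Figure D2:**
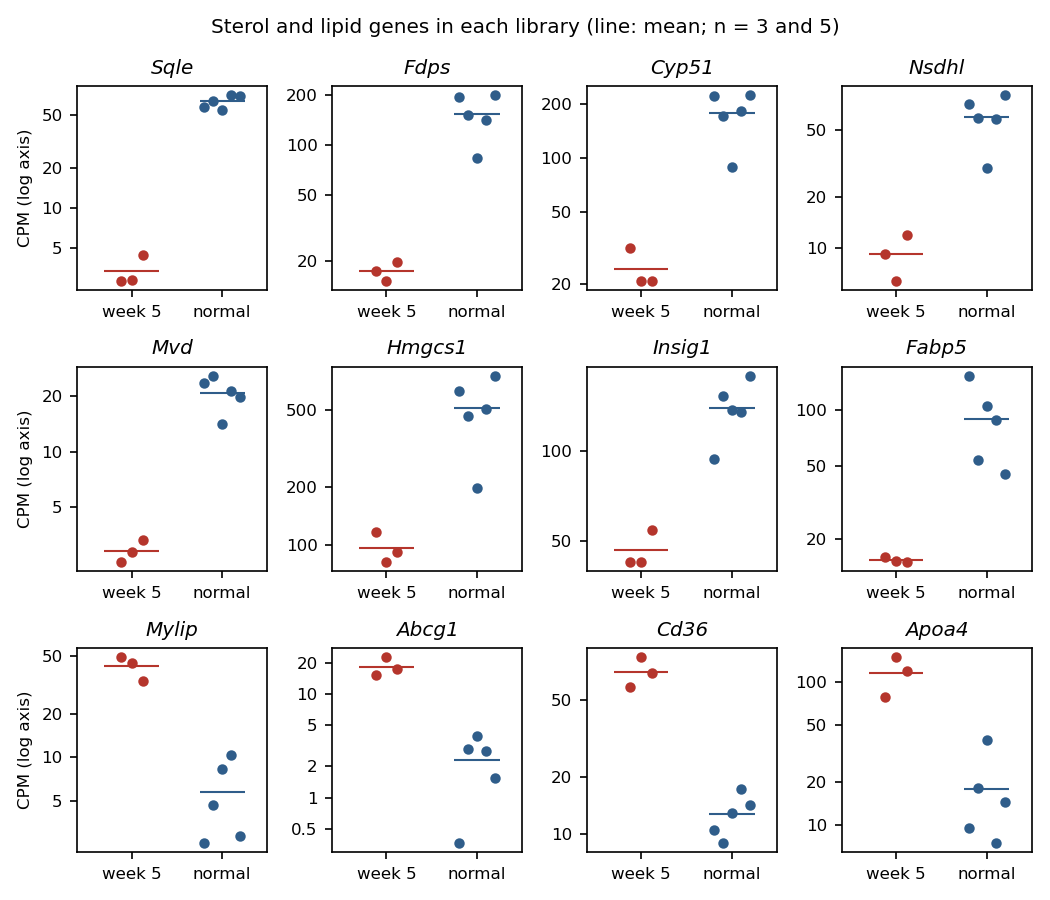
CPM per library (log axis) of 12 genes of sterol and lipid handling, week 5 libraries on the left and normal-diet libraries on the right of each panel, with a line at each mean. Points of Sqle, Fdps, Cyp51, Nsdhl, Mvd, Hmgcs1, Insig1 and Fabp5 lie lower at week 5, those of Mylip, Abcg1, Cd36 and Apoa4 higher, and in no panel do the groups overlap.

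Control genes of sterol supply were mostly lower, like those of synthesis, and sterol export genes were higher. Of 8 tested genes of SREBP2 control and sterol uptake, 6 were lower and 1 higher. Insig1, which holds SREBP in the endoplasmic reticulum, had 42.5, 42.4 and 54.2 CPM at week 5, against 94.1, 152, 138, 135 and 178 CPM on normal diet (-1.59 ± 0.30). Its groups did not overlap. Stard4, a sterol carrier (-1.09 ± 0.20), Scap, the escort of SREBP (-0.72 ± 0.13), and Srebf2, the gene of SREBP2 (-1.17 ± 0.27), were among the other lower members. The member that rose was Mylip, a ubiquitin ligase and an LXR target, with 49.004, 45.1 and 33.4 CPM at week 5, against 2.54, 4.66, 8.25, 10.4 and 2.85 CPM on normal diet (2.84 ± 0.42). Its lowest week 5 library was over 3-fold above its highest normal-diet library. On normal diet Mylip was lowest in libraries 1 and 5, as were the Kupffer, endothelial and stellate marker sums described below. The part of other cells in its rise was not tested.

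Of 7 tested LXR targets and efflux genes, 4 were higher and 0 lower, where 19.1% of all tested genes were higher. Abcg5, which with Abcg8 forms the transporter that moves sterols into bile, had 78.9, 116 and 121 CPM at week 5, against 21.9, 18.8, 86.3, 22.2 and 31.8 CPM on normal diet (1.54 ± 0.36). Normal-diet library 3 lay above the lowest week 5 library, and the other 4 were far below. Abcg8 had 77.6, 100.4 and 103 CPM at week 5, against 30.5, 24.3, 64.6, 24.9 and 46.02 CPM on normal diet (1.30 ± 0.27). Abcg1, a sterol exporter (18.4 ± 3.81 CPM at week 5 and 2.31 ± 1.37 CPM on normal diet, 2.94 ± 0.43), and Scd2, a desaturase (2.11 ± 0.39), rose as well. Abcg1 is also expressed by macrophages, whose markers were higher in the same libraries. The part of other cells in the rises of Abcg1 and Scd2 was not tested. Abca1, the exporter that loads HDL (0.13 ± 0.15), and Nr1h3, the gene of LXR alpha (-0.05 ± 0.11), were not called.

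Of 16 tested genes of fatty acid synthesis 3 were lower and 0 higher, with a median of -0.38. That lower share is near the 16.3% of all tested genes (5 were lower with a replicate block). The 3 were Acss2, which turns acetate into acetyl-CoA (40.8 ± 15.01 CPM at week 5 and 182 ± 54.4 CPM on normal diet, -2.16 ± 0.30), Acacb, acetyl-CoA carboxylase 2 (-2.02 ± 0.37), and Thrsp, a regulator of lipogenesis (-1.84 ± 0.63). Fasn, fatty acid synthase, had 139, 202 and 345 CPM at week 5, against 265, 321, 1332, 247 and 345 CPM on normal diet and was not called (-1.13 ± 0.63). The call of Thrsp was lost in 6 of 17 alternatives: with library size alone, with no filter, in a model of only both groups, and without week 5 library 1 or 2 or normal-diet library 3. Normal-diet library 3 stood apart in both Fasn and Thrsp, and without it the list median was 0.08 with 1 member higher and 2 lower. Scd1, the main hepatic desaturase, averaged 6027 ± 1439.8 CPM at week 5 and 6059 ± 4093 CPM on normal diet (-0.01 ± 0.37). Among 10 genes of polyunsaturated fatty acid synthesis and activation 5 were lower and 0 higher (2 lower with library size alone and 2 without week 5 library 2, 3 without normal-diet libraries 1 and 5), with the smallest p for Acsl3 (-0.94 ± 0.20) and Acsl4 (-0.60 ± 0.13), which activate long-chain fatty acids. The call of Acsl4 was lost with library size alone. Triglyceride synthesis had 1 of 8 lower, near the 16.3% of all tested genes. It was Dgat2 (-0.41 ± 0.16), a call lost in 11 of 17 alternatives, among them DESeq2, library size alone and each fit without 1 week 5 library.

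Of 18 tested genes of lipid uptake and droplets 8 were higher and 2 lower. Cd36, a fatty acid translocase, had 58.9, 84.1 and 69.3 CPM at week 5, against 10.5, 8.97, 12.9, 17.2 and 14.2 CPM on normal diet (2.46 ± 0.22, edgeR adjusted p = 1.7e-07). Its groups lay more than 3-fold apart. Lpl, lipoprotein lipase, averaged 155 ± 26.99 CPM at week 5 and 40.97 ± 12.3 CPM on normal diet (1.91 ± 0.30). The fatty acid binding proteins moved in opposite directions: Fabp4 (3.02 ± 0.48) and Fabp2 (1.07 ± 0.19) rose, while Fabp5 had 16.1, 15.3 and 15.1 CPM at week 5, against 152, 53.97, 105, 88.4 and 45.4 CPM on normal diet and fell (-2.52 ± 0.39). Cd36, Lpl and Fabp5 are also on the list of lipid-associated macrophage markers, and Fabp4 is expressed by capillary endothelium and macrophages. The part of those cells was not tested.

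In fatty acid oxidation and ketogenesis 3 of 27 members were higher and 4 lower, where 19.1% and 16.3% of all tested genes were. The 3 were PPAR-alpha targets: Vnn1, a pantetheinase (1.12 ± 0.26), Fgf21, a fasting hormone (2.10 ± 0.62), and Cyp4a14, an omega-hydroxylase. Cyp4a14 had 114, 212 and 164 CPM at week 5, against 25.02, 12.6, 3.89, 55.9 and 84.8 CPM on normal diet (2.17 ± 0.74). Its call was lost in 6 of 17 alternatives, among them without week 5 library 2 or 3 or normal-diet library 1 or 2. That of Fgf21 was lost in 2 of 16 alternatives, 1 of them without week 5 library 1. With library size alone 13 members were higher and 0 lower, so the 4 falls, Etfb, Cpt2 and Acaa2 among them (-0.38 to -0.46 for these), rest on the composition scaling, and without week 5 library 2 or 3 the lower count was 1 or 2. Lipoprotein export had 2 of 18 higher and 9 lower (3 and 3 with library size alone). Apoa4, an apolipoprotein of triglyceride-rich particles, had 78.1, 149 and 120.5 CPM at week 5, against 9.43, 17.9, 39.1, 7.40 and 14.5 CPM on normal diet (2.71 ± 0.41). Apoc2, the cofactor of lipoprotein lipase, rose as well (0.65 ± 0.15). Apom, a carrier of sphingosine-1-phosphate on HDL, fell to 165 ± 6.51 CPM at week 5, against 417 ± 26.8 CPM on normal diet (-1.33 ± 0.12), and Mttp, which loads lipid onto apolipoprotein B, was also lower (-0.73 ± 0.15).

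Genes of hepatocyte work outside lipid metabolism were lower at week 5 on a broad front, mostly by less than 2-fold. Of 18 secreted proteins 15 were lower and 0 higher (median -0.64), of 33 complement and coagulation genes 30 were lower and 2 higher (median -0.58), of 28 genes of the urea cycle and amino acid catabolism 24 were lower (median -0.64), and of 20 genes of methionine and one-carbon metabolism 17 were lower (median -0.67). With library size alone the lower counts were 5, 13, 10 and 7. Leaving out 1 library also moved some: complement and coagulation had 19 lower without week 5 library 2 or 3, and methionine metabolism 9 and 11 without week 5 library 1 or 2. Nuclear-encoded subunits of oxidative phosphorylation had 23 of 33 lower (median -0.41), endoplasmic reticulum folding and stress genes 13 of 23 (-0.58) and hepatocyte transcription factors 6 of 19 (-0.32). For these last 3 groups 0 members were lower with library size alone, where their medians were -0.07, -0.24 and 0.01. Leaving out 1 week 5 library left 3 to 6 lower for the folding genes and 2 or 3 for the transcription factors, and the respiratory count was 14 without week 5 library 2. RNA of other cells took a larger share of the same libraries, as described below, and in bulk samples fewer hepatocytes and less RNA per hepatocyte cannot be told apart.

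The falls in these groups named next were also called with library size alone, and several were of at least 2-fold. Serpina1e, one of the alpha-1-antitrypsin genes, had 3749, 2769 and 3669 CPM at week 5, against 13488, 16357, 16156, 12965 and 11463 CPM on normal diet (-2.05 ± 0.26). Serpina3k averaged 6607 ± 86.7 CPM at week 5 and 13308 ± 1617 CPM on normal diet (-1.01 ± 0.15). Both serpins were lower in every week 5 library. C8b, a subunit of the membrane attack complex, was lower (-1.62 ± 0.28) as was C3, the central complement protein (-0.96 ± 0.18), while Cfd, complement factor D or adipsin, rose from a low level, with 16.6, 15.5 and 10.1 CPM at week 5, against 0.907, 1.38, 0.934, 0.269 and 0.219 CPM on normal diet (4.22 ± 0.85). Csad, which makes taurine, averaged 97.5 ± 24.8 CPM at week 5 and 362 ± 114 CPM on normal diet (-1.89 ± 0.32). In the urea cycle Cps1 (-0.92 ± 0.16) and Otc (-0.67 ± 0.11), its first enzymes, were lower, as was Arg1, its last (-0.97 ± 0.20). Ttr, the thyroxine and retinol carrier, fell to 7577 ± 280.2 CPM at week 5, against 12372 ± 951 CPM on normal diet (-0.71 ± 0.12). Paralogs within the Serpina1, Serpina3, Mup, Cyp2c, Cyp3a, Ces, Ugt and Gst families are close in sequence and may share reads, so values of single members are uncertain.

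Bile acid synthesis had 8 of 13 members lower and 0 higher, and transport 5 of 14 lower and 1 higher (with library size alone the lower counts were 3 and 2, and the transport count was 3 without week 5 library 2). Cyp7b1, of the alternative synthesis route, had 114, 70.2 and 58.2 CPM at week 5, against 295, 416, 266, 235 and 142 CPM on normal diet (-1.74 ± 0.32), and Cyp27a1, which starts that route, was lower too (-1.15 ± 0.19). Cyp7a1, the rate-limiting enzyme of the classical route, had 73.3, 34.98 and 26.8 CPM at week 5, against 68.4, 69.7, 34.7, 33.4 and 29.6 CPM on normal diet and was not called (-0.06 ± 0.45). Its groups overlapped. Abcb11, the export pump for bile salts, fell (156 ± 18.5 CPM at week 5 and 352 ± 69.8 CPM on normal diet, -1.18 ± 0.16), and Abcc4, a basolateral exporter, rose (1.85 ± 0.40).

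Among cytochromes P450 and xenobiotic receptors 12 of 24 were lower and 0 higher (3 lower and 1 higher with library size alone). Cyp3a11, the main drug-metabolising P450 of its subfamily, had 433, 476 and 321 CPM at week 5, against 2219.9, 3159, 1419.9, 2695 and 2212 CPM on normal diet (-2.51 ± 0.45). Cyp2c40 had 3.60, 0.952 and 0.950 CPM at week 5, against 104, 14.8, 5.76, 42.5 and 33.3 CPM on normal diet (-4.37 ± 0.92). The normal-diet libraries of Cyp2c40 spread widely, all of them above week 5. Conjugation and ester hydrolysis had 11 of 18 lower (4 with library size alone, 7 without week 5 library 2), led by the carboxylesterase Ces2a (-1.77 ± 0.19), and the glutathione transferases 9 of 17, with the smallest p for Gsta4 (-1.26 ± 0.22). Of 19 NRF2 and antioxidant genes 2 were higher and 5 lower, where 19.1% and 16.3% of all tested genes were. With library size alone the counts were 2 and 0, and without week 5 library 2 they were 2 and 2. Nfe2l2, the gene of NRF2 itself (0.56 ± 0.11), and Hmox1, heme oxygenase 1 (1.49 ± 0.39), were the higher ones. The part of other cells in both rises was not tested. Of these groups only the glutathione transferases kept a lower count within 1.5 times under library size alone.

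Genes that depend on growth hormone or are higher in male livers had 13 of 22 members lower and 0 higher (median -0.79). The major urinary protein genes Mup11 (1129 ± 776 CPM at week 5 and 5749.6 ± 1613 CPM on normal diet, -2.35 ± 0.48) and Mup15 (-3.11 ± 0.75) and the selenium-binding protein Selenbp2 (-2.42 ± 0.43) were lower in each week 5 library. Igf1, the hormone that growth hormone induces in liver, was lower by less (-0.59 ± 0.13, a call lost with library size alone), and Zbtb16, a transcriptional repressor, fell to 2.15 ± 0.909 CPM at week 5, against 14.9 ± 7.93 CPM on normal diet (-2.73 ± 0.91). The call of Zbtb16 was lost in 5 of 17 alternatives, among them without any of the 3 week 5 libraries or normal-diet library 5. Of 15 listed genes that are higher in female livers 5 were tested and 1 rose, a share near the 19.1% of all tested genes. It was Cux2, a repressor of male-biased genes (1.47 ± 0.365 CPM at week 5 and 0.224 ± 0.252 CPM on normal diet, 2.57 ± 0.68). The sum of the female list was 43.6 to 60.0 CPM at week 5, against 25.9 to 138 CPM on normal diet.

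In genes of liver zonation the week 5 libraries differed from each other. Periportal genes had 10 of 20 members lower and 2 higher (6 and 3 with library size alone), with Cdh1, E-cadherin, at 85.9 ± 14.5 CPM at week 5 and 201 ± 16.8 CPM on normal diet (-1.23 ± 0.13), and pericentral genes had 2 of 21 lower and 1 higher (4 lower without week 5 library 1 and 1 without week 5 library 2). Both pericentral counts lay below the shares of all tested genes, 16.3% lower and 19.1% higher. The pericentral median was -0.24, and it was 0.07 with library size alone or without week 5 library 3, 0.06 without normal-diet library 2, 0.13 without week 5 library 2 and -0.53 without week 5 library 1. Summed over the pericentral list the week 5 libraries stood at 5437, 2515 and 2503 CPM, against 5708, 5565, 2194, 3642 and 4204 CPM on normal diet. Glul, glutamine synthetase of the innermost pericentral layer, had 1036, 361 and 495 CPM at week 5, against 581, 707, 300.2, 394 and 399 CPM on normal diet (0.41 ± 0.29). Cyp2e1, the alcohol-oxidising P450, had 1576, 609.9 and 487 CPM at week 5, against 1677, 1500.4, 474, 820.3 and 1118 CPM on normal diet (-0.33 ± 0.39). In both genes and in the sum, week 5 library 1 was at least 2-fold above week 5 libraries 2 and 3, and normal-diet library 3 was the lowest of its group. Nkd1, a Wnt target, was the pericentral gene that rose, with 14.4, 12.1 and 15.6 CPM at week 5, against 2.72, 3.79, 2.65, 3.77 and 0.657 CPM on normal diet (2.32 ± 0.36). Its libraries did not overlap.

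Week 5 library 1 also had the lowest sum of stellate cell markers of its group (552 CPM, against 1004 and 1133 CPM in libraries 2 and 3) and the lowest Col3a1 and Mmp12 of the 3. For Mup15 it had the highest level, 85.2, 14.8 and 18.8 CPM in libraries 1 to 3. The scatter between libraries, as chi-squared over degrees of freedom of their counts, was 14.6 and 14.4 between library 1 and the other two and 5.67 between libraries 2 and 3. No pair of libraries within week 5 or normal diet were copies of each other, the lowest such value being 5.67.

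Of 28 acute phase genes 2 were higher and 8 lower, where 19.1% and 16.3% of all tested genes were. The counts were 5 and 2 with library size alone, 2 and 5 without week 5 library 2, and 4 and 10 in a model of only both groups. Il1rn, the interleukin 1 receptor antagonist (2.69 ± 0.48), and Socs3, a feedback inhibitor of cytokine signalling (1.53 ± 0.40), rose. Apcs, serum amyloid P (-1.37 ± 0.26), and Orm1, orosomucoid (-1.01 ± 0.22), fell. Saa1, a serum amyloid A, was not called (97.4 ± 13.3 CPM at week 5 and 168 ± 138 CPM on normal diet). The integrated stress response had 4 of 17 higher and 3 lower, shares near the 19.1% and 16.3% of all tested genes. Ddit3 (1.05 ± 0.27), Ppp1r15a (1.58 ± 0.40), Slc3a2 (0.71 ± 0.18) and Fgf21 were higher. The 3 lower ones were called in neither the fit with library size alone nor any fit that left out 1 week 5 library. Of 23 immediate early and heat shock genes 11 were higher and 0 lower (5 higher without week 5 library 1, and 6 higher with 3 lower without normal-diet libraries 1 and 5), among them the factors Klf6 (1.91 ± 0.25) and Klf4 (2.91 ± 0.43). The part of other cells in the rises of Il1rn, Socs3, Klf6 and Klf4 was not tested. Glucose and insulin signalling had 4 of 21 lower, among them Ppargc1a (-1.08 ± 0.25), again near the share of all genes (1 with library size alone, 2 without week 5 library 1 or 3). The p53 targets had 1 of 12 higher and 1 lower (4 and 0 with library size alone) and the circadian clock 1 of 17 higher and 2 lower (2 and 0 with library size alone, 0 and 0 without week 5 library 1, 2 and 4 without normal-diet library 3). Both lists lay below the shares of all genes. The mitochondrially encoded transcripts had 2 of 10 lower, near the 16.3% of all tested genes. They were the ribosomal RNAs mt-Rnr1 (-0.72 ± 0.21) and mt-Rnr2 (-0.77 ± 0.25). The 2 mitochondrial calls were lost with library size alone, without week 5 library 2 or 3 and without normal-diet libraries 1 and 5. That of mt-Rnr2 was also lost without normal-diet library 5 alone, with a replicate block and with no filter.

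Markers of macrophages, endothelium and stellate cells, in sums over 5 lists, were higher in the week 5 libraries than in any normal-diet library. All 15 Kupffer cell markers, all 22 sinusoidal endothelial markers, 19 of 20 tested stellate cell and myofibroblast markers, 19 of 21 tested monocyte and dendritic cell markers and 8 of 9 tested vascular endothelial markers were higher, with median log2 fold changes of 2.10, 2.24, 2.62, 2.32 and 2.57. The summed Kupffer markers ranged over 2042 to 2223 CPM at week 5, against 202 to 764 CPM on normal diet. The sinusoidal sum was 2646 to 3064 CPM at week 5, against 301 to 1149 CPM on normal diet. The stellate sum was 552 to 1133 CPM at week 5, against 85.2 to 173 CPM on normal diet. None of these ranges overlapped, and 0 of the summed markers was at 0 in all 8 libraries. For monocytes and dendritic cells the sum was 910.0 to 1072 CPM at week 5, against 77.4 to 303 CPM on normal diet, and for vascular endothelium 129.7 to 166 CPM at week 5, against 18.4 to 45.1 CPM on normal diet. Normal-diet libraries 1 and 5 had the lowest sums of their group in each of these 5 lists. Without both, 13 of 15 Kupffer markers were higher.

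**Figure D3:**
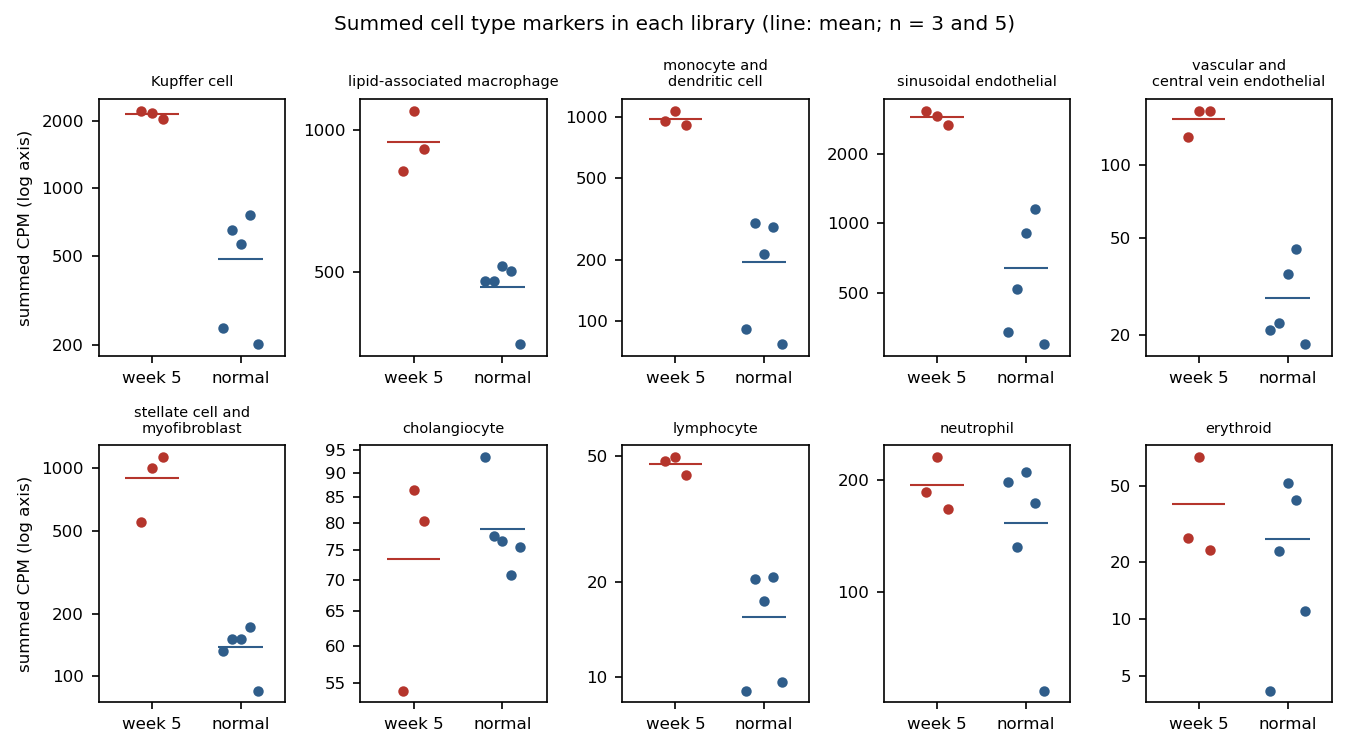
Summed CPM (log axis) of 10 lists of cell type markers in each library, week 5 libraries on the left and normal-diet libraries on the right of each panel. The Kupffer, macrophage, monocyte, sinusoidal, vascular, stellate and lymphocyte sums do not overlap between groups, and the cholangiocyte, neutrophil and erythroid sums do.

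Single markers had like values. Clec4f, which in mouse liver marks Kupffer cells, had 191, 179 and 172 CPM at week 5, against 15.8, 43.8, 45.01, 63.5 and 12.7 CPM on normal diet (2.30 ± 0.41). Stab2, a scavenger receptor of sinusoidal endothelium, had 78.2, 69.8 and 71.04 CPM at week 5, against 8.34, 10.9, 22.3, 24.2 and 8.98 CPM on normal diet (2.26 ± 0.30). Lrat, which stores retinol in stellate cells, had 22.6, 37.2 and 41.8 CPM at week 5, against 2.36, 6.55, 7.16, 6.19 and 4.82 CPM on normal diet (2.62 ± 0.36). Each of the 3 was higher in all week 5 libraries without overlap. The abundant genes with the largest rises were mostly of this kind. Of the 10 genes with at least 50 CPM on normal diet that rose most, Cd5l and C1qb are on the Kupffer list, Aqp1, Clec4g and Dnase1l3 on the sinusoidal list, Dcn on the stellate list and Ctss on the monocyte list. Their log2 fold changes lay between 2.09 and 2.61. The remaining 3 were Tmsb4x, an actin-binding peptide (2.56 ± 0.55), H2-Aa, an MHC class II chain (2.08 ± 0.75), and Maf, a transcription factor (615 ± 45.96 CPM at week 5 and 148 ± 57.9 CPM on normal diet, 2.06 ± 0.26). By CPM, the nuclear RNA Malat1 (0.79 ± 0.24) and beta-actin, Actb (0.46 ± 0.11), were also among the 6 largest rises. The call of Malat1 was lost in 2 of 17 alternatives, 1 of them without week 5 library 2.

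Fewer markers of 4 further cell kinds were called, where 19.1% of all tested genes were higher. The counts rest on 3 to 7 tested members each, and that of the neutrophil markers was near the share of all genes. Of the 7 tested cholangiocyte markers 2 were higher, Bicc1 (2.22 ± 0.45) and Spp1 (1.65 ± 0.34), with a sum of 53.96 to 86.4 CPM at week 5 and 70.8 to 93.4 CPM on normal diet, and Aqp5 was at 0 in all 8 libraries. Spp1 is also on the list of lipid-associated macrophage markers. Lymphocyte markers had 1 of 3 tested higher, Ptprc, the common leukocyte antigen (1.98 ± 0.41), with Trac and Gzmb at 0. The other 2 tested lymphocyte markers were not called, with log2 fold changes of -0.63 and -0.80. The sum of the 24 listed lymphocyte markers, most of them too low to test, was 43.6 to 49.5 CPM at week 5. On normal diet it was 9.07 to 20.7 CPM. It includes Ptprc, which is not particular to lymphocytes. Neutrophil markers had 1 of 5 tested higher, Csf3r (2.98 ± 0.50), with sums of 167 to 229.8 CPM at week 5 and 54.1 to 209 CPM on normal diet and Ly6g at 0, and erythroid markers had 0 of 5 (edgeR, none at an unadjusted p under 0.05, and 0 in DESeq2 and voom), with sums of 23.05 to 71.1 CPM at week 5 and 4.17 to 51.9 CPM on normal diet.

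Matrix and macrophage genes were among those that rose most. Mmp12, macrophage elastase, had 14.8, 42.8 and 31.5 CPM at week 5, against 0, 0.172, 0.311, 0.808 and 0.219 CPM on normal diet, where it rests on 10 counts in 5 libraries. The log2 fold change was 6.40 ± 0.56 (edgeR adjusted p = 1.9e-07). Gpnmb, a lysosomal glycoprotein of lipid-laden macrophages, had 5.15, 26.3 and 10.5 CPM at week 5, against 0, 0, 0.623, 0.269 and 0 CPM on normal diet, where it rests on 6 counts (6.00 ± 0.80). Both were scarce on normal diet and higher in each week 5 library. In all, 13 of 15 lipid-associated macrophage markers were higher and 1, Fabp5, lower, with a median of 2.46 and a sum of 816 to 1097 CPM at week 5 and 351 to 514 CPM on normal diet. Cd63 (3.21 ± 0.36) and Lgals3, galectin 3 (3.12 ± 0.52), are on the same list, and Clec7a, the receptor for fungal glucans on myeloid cells, rose similarly (2.99 ± 0.50). The rises of Mmp12, Gpnmb and Trem2, a lipid receptor of these macrophages (3.77 ± 0.64), were larger than the largest of any Kupffer marker, that of Cd5l (2.51 ± 0.53). The difference between those rises was not tested.

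Fibrillar matrix and remodelling genes had 29 of 33 tested members higher and 2 lower, with a median of 2.59. Col3a1, type III collagen, had 19.7, 75.8 and 61.4 CPM at week 5, against 2.54, 3.79, 3.43, 3.10 and 1.75 CPM on normal diet (4.13 ± 0.56). Col1a1, of type I collagen, had 5.54, 26.8 and 25.2 CPM at week 5, against 1.09, 2.24, 0, 0.808 and 0.657 CPM on normal diet (4.31 ± 0.68), and Col1a2 rose by 3.64 ± 0.60 on the log2 scale. All week 5 libraries were higher, library 1 least. Cygb, a globin of stellate cells (2.94 ± 0.41), Timp3, a protease inhibitor (2.68 ± 0.36), and Bgn, a matrix proteoglycan (2.59 ± 0.34), rose as well. The lower members were Col18a1 and Col15a1, and they were called lower in no fit with library size alone. The call of Col15a1 was lost in 7 of 17 alternatives. Collagens 1 and 3 are also on the stellate list, and how far the rises come from more stellate RNA in the sort was not tested.

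**Figure D4:**
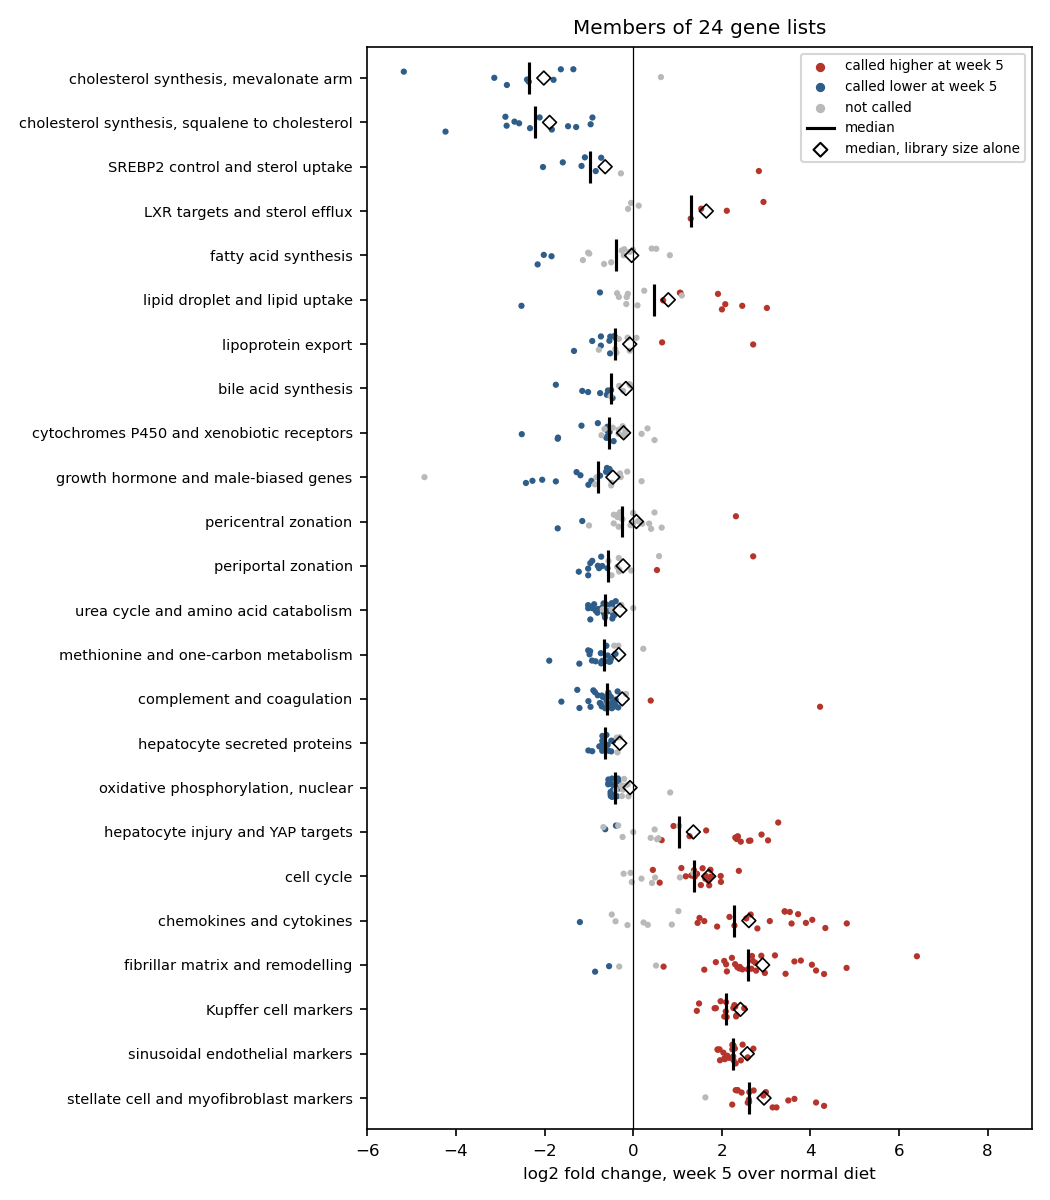
Log2 fold change, week 5 over normal diet, of every tested member of 24 gene lists (1 point per gene), with the list median as a bar and the median under library size alone as an open diamond. The cholesterol synthesis lists lie far below 0 under either scaling, and the SREBP2 list below it (-0.97, and -0.63 with library size alone). The list of LXR targets and sterol efflux lies above 0 (1.30, and 1.65 with library size alone), as do the lipid droplet, matrix, chemokine and marker lists. The metabolic and secretory lists lie just below 0 with diamonds nearer 0, that of the pericentral list at 0.07.

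Inflammatory genes were mostly higher, in the libraries in which the marker sums of immune cells were higher. Of 27 tested chemokine and cytokine genes 19 were higher and 1 lower (median 2.29). Ccr2, the receptor of inflammatory monocytes, had 4.18, 16.2 and 8.55 CPM at week 5, against 0.544, 0.862, 0.623, 0.673 and 0 CPM on normal diet (4.04 ± 0.49). Cxcl2, a neutrophil chemoattractant, had 52.5, 19.7 and 17.2 CPM at week 5, against 1.09, 1.72, 2.49, 4.31 and 1.10 CPM on normal diet (3.72 ± 0.59). For both genes the groups did not overlap, with week 5 library 2 highest for Ccr2 and library 1 for Cxcl2. Cx3cr1, the fractalkine receptor (3.57 ± 0.43), and Ccl4 (4.34 ± 0.67) rose too, and Ccl9 was the member that fell, to 29.3 ± 8.04 CPM at week 5, against 67.5 ± 13.4 CPM on normal diet (-1.20 ± 0.16). Interferon response genes had 10 of 30 higher and 1 lower, the GTPase Iigp1 (-0.95 ± 0.26), with a median of 0.17. The call of Iigp1 was lost with library size alone, in a model of only both groups and without week 5 library 2 or 3. Ifi44 (1.69 ± 0.26) and Gbp2 (1.89 ± 0.35) were the higher ones with the smallest p. Antigen presentation had 7 of 12 higher, including Cd74, the invariant chain (1.99 ± 0.60). That count was 2 without normal-diet libraries 1 and 5, 3 with a replicate block or without week 5 library 2, and 4 with no filter, in a model of only both groups, without week 5 library 1 or without normal-diet library 1, 3, 4 or 5. It was 9 without normal-diet library 2. H2-Aa had 263, 268 and 178 CPM at week 5, against 15.2, 167, 40.3, 46.98 and 8.98 CPM on normal diet. Its call was lost in 10 of 17 alternatives, among them without week 5 library 1 or 2 and without any normal-diet library but number 2.

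Genes of injured hepatocytes and YAP targets had 14 of 25 tested members higher and 2 lower. Anxa2, a membrane-binding annexin, averaged 24.2 ± 7.76 CPM at week 5 and 4.81 ± 1.31 CPM on normal diet (2.30 ± 0.25), S100a11 was higher by 2.33 ± 0.30, Ly6d by 3.27 ± 0.48 and Anxa3 by 2.43 ± 0.37 on the log2 scale. Krt18, a keratin of hepatocytes, was lower (-0.63 ± 0.11). The annexins had 4 of 7 higher and 1 lower, and the S100 proteins 4 of 9 higher and 1 lower, and with library size alone 0 of either were lower. In the cytoskeleton list 18 of 25 were higher and 0 lower, with the smallest p for Tuba1a (2.33 ± 0.32), Tagln2 (2.11 ± 0.29) and the membrane linker Msn (2.29 ± 0.34). Lysosomal genes had 14 of 32 higher and 1 lower (21 and 0 with library size alone), with Ctsb, cathepsin B, at 509 ± 21.03 CPM at week 5 and 328 ± 26.8 CPM on normal diet (0.63 ± 0.12). Macrophages, endothelium and stellate cells express many of these genes, and the sums of their markers were higher in the same libraries. Their part in these rises was not tested.

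Cell cycle genes had 20 of 28 tested members higher and 0 lower (median 1.38), but at low levels. Ccnd1, cyclin D1, averaged 24.3 ± 1.39 CPM at week 5 and 9.06 ± 5.79 CPM on normal diet (1.39 ± 0.28). Birc5, survivin, a protein of dividing cells, averaged 9.85 ± 5.67 CPM at week 5 and 2.39 ± 1.78 CPM on normal diet (1.98 ± 0.44), and Mki67, a marker of proliferating cells, had 7.58, 6.31 and 9.27 CPM at week 5, against 1.27, 6.04, 0.623, 3.90 and 0.219 CPM on normal diet (1.63 ± 0.49). Normal-diet library 2 came near to week 5. Summed over the list the week 5 libraries had 194, 207 and 278 CPM, against 94.3, 164, 102, 156 and 83.5 CPM on normal diet. The count was 9 without normal-diet libraries 1 and 5 and 11 without week 5 library 3. Which cells these transcripts come from was not tested.

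Vascular signals that act on pericentral hepatocytes were among the endothelial genes that rose. Rspo3, which amplifies Wnt signals, had 17.99, 26.9 and 23.996 CPM at week 5, against 4.35, 2.59, 6.85, 5.25 and 2.85 CPM on normal diet (2.36 ± 0.27). Wnt2 had 18.8, 22.7 and 19.1 CPM at week 5, against 1.09, 1.90, 3.11, 4.71 and 2.41 CPM on normal diet (2.88 ± 0.34). For both genes the groups did not overlap. Both are on the list of vascular endothelial markers, whose median log2 fold change was 2.57. The part of a larger share of endothelial RNA in their rises was not tested. Of 21 tested pericentral genes, the Wnt target Nkd1 given above was the 1 that rose, while 2 were lower and the median was -0.24. Both counts lay below the shares of all tested genes, 19.1% higher and 16.3% lower.

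Set beside its neighbours in time, week 5 was not told apart by the main test. Against week 4, 0 of 11869 genes (0%) were called by edgeR, with 2099 at an unadjusted p under 0.05. DESeq2 called 110 genes and limma voom 387 in the same comparison. Of the genes with large rises against normal diet, Mmp12 averaged 29.7 ± 14.1 CPM at week 5 and 8.08 ± 5.18 CPM at week 4 (log2 fold change 1.86 ± 0.43, edgeR adjusted p = 0.125), and Col3a1 52.3 ± 29.1 CPM at week 5 and 16.3 ± 6.71 CPM at week 4 (1.68 ± 0.55, edgeR adjusted p = 0.18). Sqle averaged 3.36 ± 0.900 CPM at week 5 and 4.79 ± 0.520 CPM at week 4 (-0.51 ± 0.28). Neither Col3a1 nor Mmp12 passed the adjustment, although the libraries of Mmp12 did not overlap.

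Against week 6, 0 genes (0%) were called by edgeR, DESeq2 or voom, with 366 at an unadjusted p under 0.05 in edgeR. Mmp12 averaged 29.7 ± 14.1 CPM at week 5 and 27.8 ± 6.62 CPM at week 6 (log2 fold change 0.09 ± 0.41), Cyp3a11 410.0 ± 79.97 CPM at week 5 and 382 ± 308 CPM at week 6 (0.10 ± 0.45) and Serpina1e 3396 ± 544 CPM at week 5 and 5126 ± 901 CPM at week 6 (-0.59 ± 0.27). Missing the threshold does not show that both weeks were alike. 

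**Figure D5:**
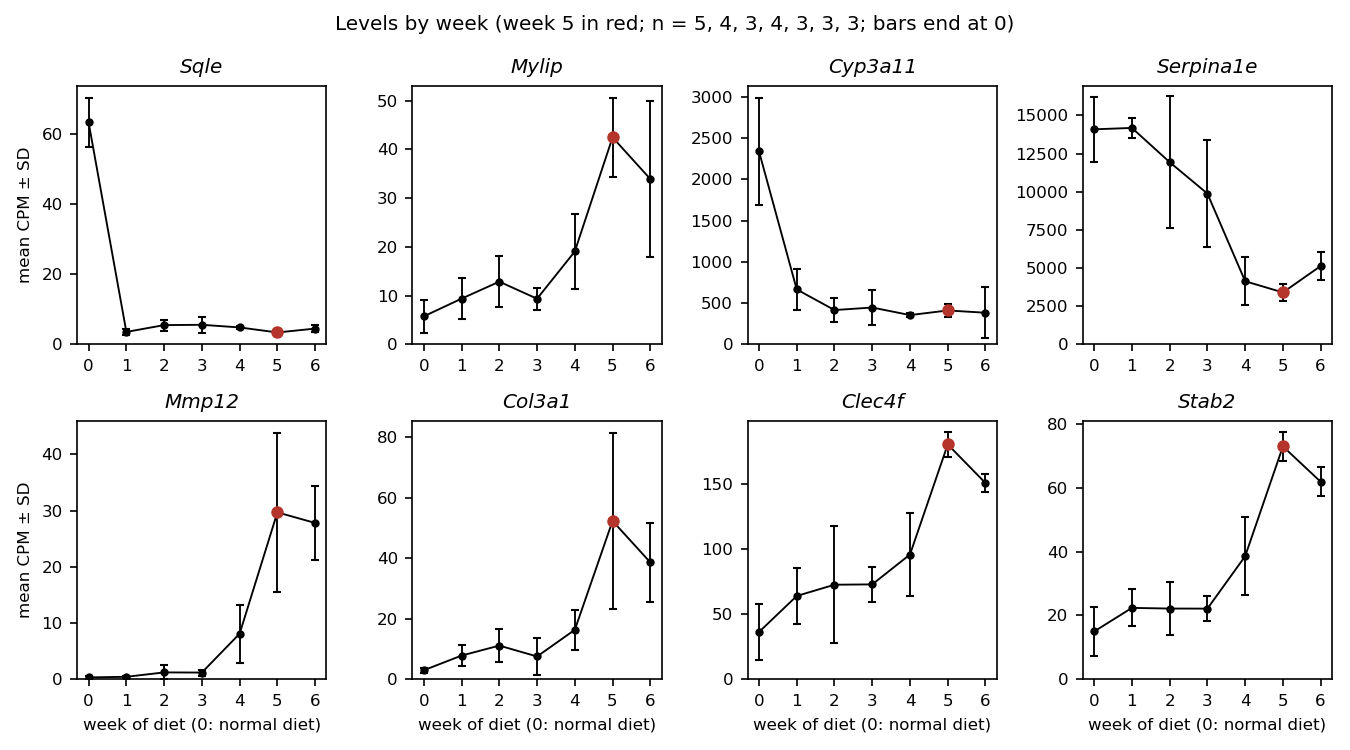
Mean CPM with SD bars of 8 genes on normal diet (week 0) and at weeks 1 to 6 of the NASH diet, each panel with its own linear axis from 0. Sqle and Cyp3a11 are low from week 1 on, and Mmp12, Col3a1, Clec4f and Stab2 are highest at week 5 or 6.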

How the data were processed

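Per the labels, hepatocytes were sorted from collagenase-perfused livers, and the QuantSeq 3' FWD kit, whose reads mark transcript ends, was used for sequencing libraries. Reads were processed with FastQC, cutadapt and STAR 2.7.1a against GRCm39, per the submitters' processing notes, which name neither a counting tool nor an annotation. The authors deposited unnormalized counts, with gene symbols in rows and libraries in columns. RefSeq promoter windows are of the build GRCm38.p6 and were not joined to positions of the counted reads.

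Differences were tested on these counts with edgeR 4.0.16 in R 4.3.3: filterByExpr by group, TMM factors, 1 model of 7 groups and 25 libraries (18 residual degrees of freedom), robust quasi-likelihood F-tests and Benjamini-Hochberg adjustment over all 11869 tested genes of 37085 symbols. Standard errors are the size of the log2 fold change over the square root of F. The median biological coefficient of variation was 0.179. Lists were counted, not tested. On simulated counts with known changes for week 5 against normal diet (11605 genes), 58 of 100 genes changed 2-fold and 93 of 100 changed 4-fold were called, with 3 false calls among 154. Only these genes were changed, as many up as down, and no shift in composition between the groups was simulated. The simulation therefore cannot show how many calls in the data depend on the scaling. Replicate numbers were not used to pair week 5 with normal-diet libraries in the main model, and whether they mark pairs was not tested.

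Named genes are the 10 largest rises and falls by fold among called genes with at least 10 CPM and no overlap, the 10 largest such rises with at least 50 CPM on normal diet, the 6 largest each way in CPM, and up to 5 members of each list by p, plus uncalled examples; a few genes that the rule takes are not reported here. The gene lists and this rule were chosen with earlier results of these data known. C3, C8b, Cfd, Col15a1, Col18a1, Col1a1, Cyp4a14, Hmgcs1, Idi1, Igf1, Iigp1, Krt18, Mki67, Socs3, Srebf2 and Trem2 fall outside the rule and were chosen after their values were seen. Alternatives were DESeq2 size factors or library size in place of TMM, no filter or one of 5 CPM in 3 libraries, DESeq2 1.42.0, limma voom (3.58.1), a replicate block, a model of only both groups, and leaving out libraries.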

Additional observations from a re-analysis of the deposited data

Results flagged for a closer look

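In the 5 normal-diet libraries, 12 of 147 named genes and 4 of 54 list sums had 1 library far from the other 4 by Dixon's criterion at the 95% level, which chance alone exceeds in about 1 of 20 groups. Groups of 3 libraries, week 5 included, were not examined this way. Normal-diet library 3 held 9 of these 16 values. For fatty acid synthesis it stood at 19235 CPM in the list sum, against 5394 to 6810 CPM in the other normal-diet libraries, with Fasn at 1332 CPM, Scd1 at 13257 CPM, Thrsp at 2054 CPM and Acacb at 80.8 CPM. Its glucose and insulin list sum was 20463 CPM, against 8039 to 9875 CPM. The same library was high for Abcg5 (86.3 CPM) and Apoc2 (533 CPM) and low for Msmo1 (72.9 CPM, against 199 to 230 CPM). The rises of Abcg5 and Apoc2 and the falls of Msmo1 and Acacb at week 5 were called without it as well.

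Normal-diet library 5 was high for both mitochondrial ribosomal RNAs, mt-Rnr1 (56525 CPM, against 30121 to 37128 CPM) and mt-Rnr2 (135931 CPM, against 65093 to 81854 CPM), and low in the sum of lipid-associated macrophage markers (351 CPM, against 477 to 514 CPM). Without library 5 the fall of mt-Rnr2 at week 5 was not called, while that of mt-Rnr1 was. Library 4 was low for Etfb (353 CPM) and high for Il1rn (4.98 CPM), library 2 was high for H2-Aa (167 CPM) and library 1 for the fatty acid oxidation sum (6213 CPM). No cause was tested.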

How the results depend on the processing

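The total of 4197 genes at week 5 against normal diet stayed between 2877 and 4240 under all 17 alternatives, and 0 shared calls changed direction. The split into 2268 higher and 1929 lower did not hold under library size alone, which gave 3779 higher and 365 lower and shared 62.7% of the calls, since that scaling shifts all log2 fold changes upward by about 0.33. Leaving out 1 library at a time gave 846 to 1918 lower genes, with 1128, 846 and 1126 when week 5 library 1, 2 or 3 was left out. Without normal-diet libraries 1 and 5, 1814 were higher and 1297 lower. Against week 4, where edgeR called 0, library size alone gave 14, DESeq2 110, limma voom 387, a model of only both groups 81 and single libraries left out 0 to 2. Against week 6 single libraries left out gave 0 to 1. The cause of these differences was not tested. The deviations of week 5 and normal-diet libraries of the same number had correlations of 0.09, -0.04 and 0.04 for numbers 1 to 3. Those 3 values are too few to settle whether the libraries were paired. A replicate block gave 3677 genes, 2053 higher and 1624 lower. Of the 147 named genes over all alternatives, 2392 of 2495 values kept direction and side of the threshold, 77 lost the call and 3 gained it. The other 23, of 6 uncalled genes (Alb, Cyp2e1, Cyp7a1, Glul, Nr1h3 and Scd1), changed sign, and 0 called values did. A filter of 5 CPM lowered the matrix and chemokine counts to 19 and 12 higher, as fewer members were tested. Genes under about 10 CPM, most of those called higher, rest on few counts.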
